A study of Mus musculus with 12 samples.

Results

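The genes described here are the collagens of the mouse mammary carcinoma line 4T1, taken as all entries of the deposited count table whose symbol is Col, a number, the letter a and a number. The table held 44 of them among 31017 genes. A collagen counted as expressed when it had a CPM (its count relative to the library total, after scaling by the trimmed mean of M values, TMM) of at least 1 in at least 3 of the 12 libraries. By that rule 15 collagens were expressed and 29 were not. The 15 belong to 11 of the 27 collagen types in the table.

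The 12 libraries form 4 groups of 3. All cells were nucleofected with Cas9 and a guide and grown inside gels of collagen I. The groups were the ETV4 knockout with FGF (an ETV4 guide, then 25 ng/ml of FGF10 together with FGF2 at a dose of 40 ng/ml), the control with FGF (a control guide and the same factors), the ETV4 knockout without FGF, and the control without FGF. ETV4 is an ETS-family transcription factor of the PEA3 group, and FGF10 and FGF2 are fibroblast growth factors. The collagen gel was 1.2 or 2.4 mg/ml, and which library had which is not given. The FGF cultures had the factors from seeding, in richer serum until the next day and then for 4 days in 2% serum. The labels give 2% serum for the cultures in general and do not describe the first day of those without FGF. All knockout libraries carry a further shared tag in their names that the labels do not explain. If it names a single clone, clone and genotype cannot be told apart. Nothing says that replicates came from separate cultures, so all p-values describe variation among these 12 libraries, part of which may be technical.

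Collagens are trimers of alpha chains wound into a triple helix, and a chain that finds no partner is usually not secreted. Collagen IV forms the sheet of basement membranes, collagen VI forms beaded filaments next to them, collagen VII anchors epithelial basement membranes to the tissue below, and collagen XVII spans the cell membrane in hemidesmosomes. Fibril-forming collagens such as I, III and V are mainly made by fibroblasts.

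Library totals ran from 18229429 to 23193244 counts. Knockout replicate 2 without FGF stood apart on the second principal component (10.4% of the variance). Its deviation from the other libraries of its group followed exon length (Spearman's rho -0.47 across genes) and GC content (0.51), so results that rest on it are also given without it. Etv4 RNA, which need not disappear when Cas9 edits a gene, averaged 116 ± 3.30 CPM in knockout with FGF and 165 ± 9.44 CPM in control with FGF, and 130 ± 24.8 CPM in knockout and 166 ± 3.18 CPM in control (SD, n = 3 each). Of 8 markers of mammary carcinoma epithelium 7 were expressed, and Krt5 had no counts. Summed over that list, CPM ran from 4000 to 4125 in knockout with FGF, 4804 to 5386 in control with FGF, 4413 to 6329 in knockout and 4717 to 4886 in control. With FGF the knockout sums thus lay below all control sums. Of the 7, 1 was higher and 3 were lower in knockout in each comparison by the test described below. Krt19 had log2 fold changes of 0.91 with FGF and 1.41 without, Krt14 of -1.63 and -0.99, Epcam of -0.42 and -0.43, and Cdh1 of -0.17 (adjusted p = 0.0919) and -0.46. Of 8 fibroblast markers only Pdgfra was expressed, and Pdgfrb, Thy1, Dcn and Lum had no counts in any library. Among the fibroblast markers is the member Col1a1, which is described with the collagens below the rule. The list summed to 12.6 to 16.04 CPM in knockout with FGF, 8.03 to 11.4 in control with FGF, 8.57 to 14.1 in knockout and 10.1 to 11.8 in control. No endothelial and no pericyte or smooth muscle marker was expressed, and of 5 leukocyte markers only Cd68 was. Pdgfra was higher in knockout with FGF (log2 0.51, adjusted p = 0.0353), and Cd68 was higher in knockout without FGF (log2 0.47, adjusted p = 0.0411). The part of these markers in the results on collagens was not tested. In these bulk samples, fewer cells making a collagen and less of its RNA per cell cannot be told apart.

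The promoter windows of Col6a1, Col6a2, Col4a5 and Col4a6 are shown because these 4 genes had the largest falls in knockout with FGF. They are RefSeq windows on GRCm38.p6 running from 250 bases before to 50 bases after the annotated start, read 5′ to 3′ on the strand of the gene. Col6a1 is chr10:76725995-76726294 (minus strand), Col6a2 is chr10:76623581-76623880 (minus, the one of its 2 windows that lies nearer to the annotated gene start), Col4a5 is chrX:141475169-141475468 (plus) and Col4a6 is chrX:141474027-141474326 (minus). The last line is the stretch of 78 bases that the windows of Col4a1 and Col4a2 share, chr8:11312777-11312854, on the plus strand. Capitals mark matches, on either strand, to CCGGAA or CAGGAA (ETS-like words), TGANTCA (an AP-1-like word, with N for any base) and GGGCGG (an Sp1-like word).
Col6a1: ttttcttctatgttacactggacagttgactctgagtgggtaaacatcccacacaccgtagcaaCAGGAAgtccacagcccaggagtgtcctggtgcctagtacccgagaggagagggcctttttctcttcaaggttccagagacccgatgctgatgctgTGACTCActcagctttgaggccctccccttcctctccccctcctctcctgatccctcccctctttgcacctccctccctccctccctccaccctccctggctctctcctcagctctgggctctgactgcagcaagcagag
Col6a2: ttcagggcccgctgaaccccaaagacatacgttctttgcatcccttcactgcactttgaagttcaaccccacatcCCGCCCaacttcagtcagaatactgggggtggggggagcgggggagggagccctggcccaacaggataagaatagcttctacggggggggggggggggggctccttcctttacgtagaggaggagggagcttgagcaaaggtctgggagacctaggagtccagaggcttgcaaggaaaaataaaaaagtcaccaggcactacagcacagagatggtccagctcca
Col4a5: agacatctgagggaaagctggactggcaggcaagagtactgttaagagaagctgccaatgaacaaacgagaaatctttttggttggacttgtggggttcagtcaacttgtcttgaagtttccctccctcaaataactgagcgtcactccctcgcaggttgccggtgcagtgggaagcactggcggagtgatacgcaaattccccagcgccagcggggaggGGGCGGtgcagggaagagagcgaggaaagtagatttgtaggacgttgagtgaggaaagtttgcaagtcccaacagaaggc
Col4a6: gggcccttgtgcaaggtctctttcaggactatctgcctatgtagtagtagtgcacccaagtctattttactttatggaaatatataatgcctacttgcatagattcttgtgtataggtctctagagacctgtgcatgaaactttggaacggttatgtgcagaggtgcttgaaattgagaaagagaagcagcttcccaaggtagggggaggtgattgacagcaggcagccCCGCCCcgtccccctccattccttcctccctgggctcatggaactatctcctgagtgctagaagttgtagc
Col4a1 and Col4a2: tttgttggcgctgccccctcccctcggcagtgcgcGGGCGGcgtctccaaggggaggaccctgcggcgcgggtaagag

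CCGGAA was found in 0 of the 14 windows of expressed collagens that RefSeq gives (Col12a1 had none), and in 14.9% of all 32851 promoter windows. CAGGAA was found in 3, those of Col6a1, Col16a1 and Col17a1, against 30.6% of all windows. TGANTCA was found in 1, that of Col6a1, against 7.81%. GGGCGG was found in 11 of the 14, against 35.7%. None of these 4 words overlaps another in the sequences shown. A match is a description of the letters and not a binding site. Other ETS-like words were not searched for, so unmarked stretches may still hold them.

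In CPM per kilobase of exon (RPKM, which allows levels of different genes to be compared), the basement membrane chains Col4a1 and Col4a2, with Col18a1 and Col8a1, made up most of the collagen RNA. Together they held 89.7% to 90.5% of the summed RPKM of the 15 genes in knockout with FGF, 87.6% to 87.8% in control with FGF, 89.7% to 90.0% in knockout and 86.7% to 86.8% in control. The summed RPKM itself ran from 268 to 282 in knockout with FGF, 261 to 280 in control with FGF, 262 to 273 in knockout and 265 to 298 in control, and these ranges overlap. In control libraries the order began with Col4a1 at 86.3 ± 4.88 RPKM, Col4a2 at 63.1 ± 5.36, Col18a1 at 52.2 ± 3.20 and Col8a1 at 41.2 ± 1.17 (SD, n = 3), each apart from the next in every library. Col7a1 at 10.5 and Col16a1 at 9.72 RPKM came next and overlapped. Col6a1 (8.12), Col4a5 (4.06) and Col5a1 (2.73) were separate from their neighbours. The other 6, from Col6a2 at 0.849 to Col27a1 at 0.0477 RPKM, were all under 1 RPKM, and among them Col17a1 overlapped with Col4a6, and Col12a1 with Col27a1.

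In knockout libraries Col4a1 remained first at 77.5 ± 2.705 RPKM but overlapped with Col18a1 at 72.5 ± 7.67 RPKM, which stood above Col4a2 at 58.2 ± 2.34. The libraries of Col5a1 (4.92), Col6a1 (4.92) and Col7a1 (4.89 RPKM) overlapped there. In knockout with FGF the order was Col4a1 (82.0), Col18a1 (67.2), Col4a2 (60.6) and Col8a1 (39.2 RPKM), all separate, whereas the first 4 genes in control with FGF had the order of control. This order depends on the length used: with the length of the principal transcript, an alternative chosen after seeing the data, Col18a1 at 98.4 RPKM stood above Col4a1 at 92.6 in knockout with FGF, and at 76.6 RPKM it came second to Col4a1 at 97.4 in control.

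**Figure D1:**
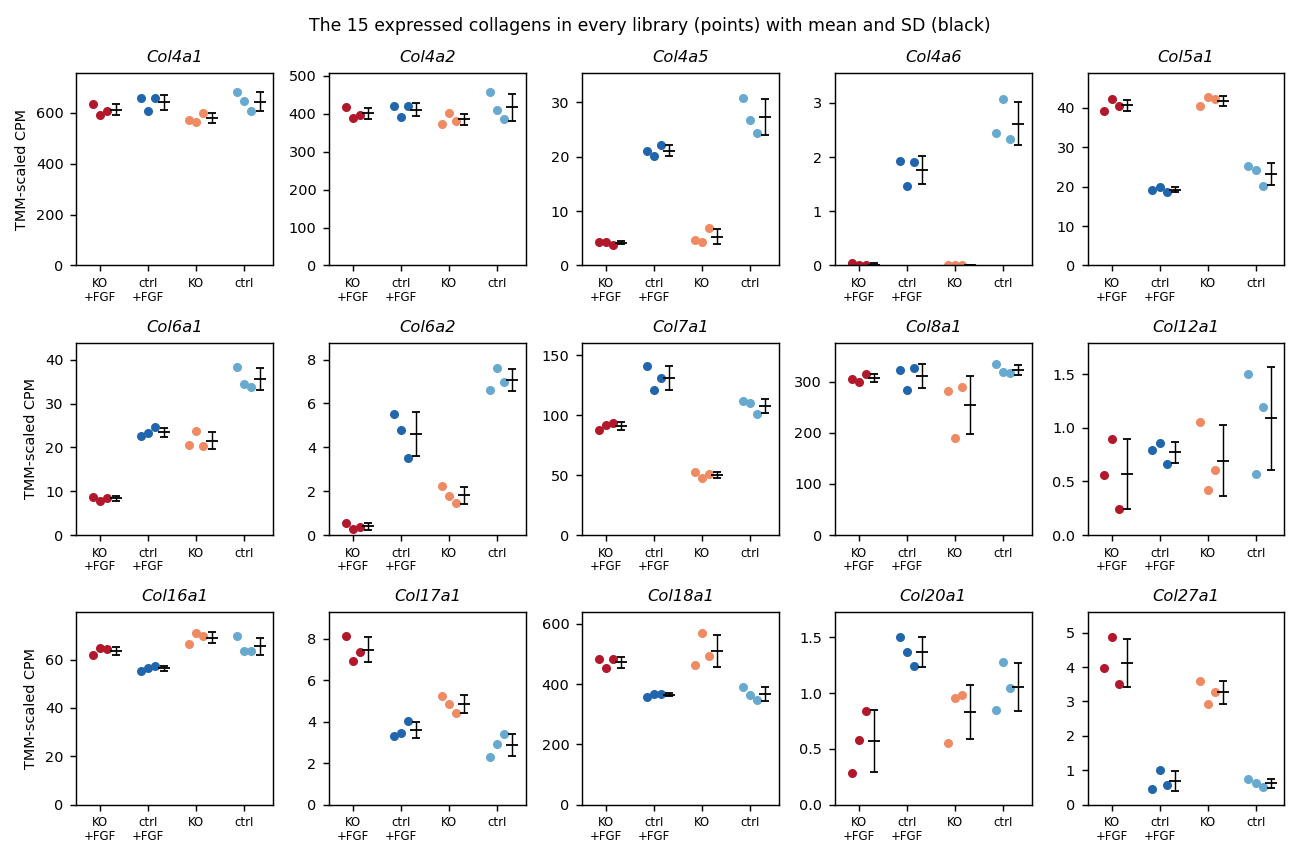
TMM-scaled CPM (linear axes from 0) of the 15 expressed collagens in each of the 12 libraries, with the 4 groups from left to right as knockout with FGF, control with FGF, knockout and control (ctrl); points are libraries and black marks are the mean and SD of 3. Col6a1 is lowest in knockout with FGF (7.77 to 8.70 CPM) and highest in control (33.8 to 38.4 CPM), and Col4a6 is at or near 0 in all 6 knockout libraries.

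Between knockout and control without FGF, 10 of the 15 expressed collagens passed the test (edgeR quasi-likelihood F-test, Benjamini-Hochberg adjusted p under 0.05 over all 12079 genes tested), 4 higher and 6 lower in knockout. Of all genes tested, 45.8% passed, 22.5% higher and 23.3% lower, so a high share of called genes is a property of the whole comparison. The median log2 fold change of the 15 was -0.35, against -0.01 for all genes. With FGF, 4 collagens were again higher and 6 lower in knockout, where 40.3% of all genes passed, 18% higher and 22.2% lower. There the median of the 15 was -0.07, against -0.01 for all genes. The comparisons without and with FGF share no library. Col5a1, Col27a1, Col17a1 and Col18a1 were the higher genes in both. Col4a5, Col4a6, Col6a1, Col6a2 and Col7a1 were lower in both. Col4a6 and Col20a1 met the expression rule through control libraries alone, and Col27a1 through the knockout libraries and 1 control library. The counts of higher and lower collagens thus describe the genes and support nothing about collagens as a set. Col8a1 passed as lower without FGF and Col20a1 with FGF, and for neither was the difference between the comparisons called (interaction, adjusted p = 0.503 for both).

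The filament collagen VI is known as an assembly of the products of Col6a1, Col6a2 and either Col6a3 or a related longer chain. Col6a1 was at 8.70, 7.77 and 8.53 CPM in knockout with FGF, 22.6, 23.2 and 24.6 CPM in control with FGF, 20.5, 23.7 and 20.3 CPM in knockout, and 38.4, 34.5 and 33.8 CPM in control. The lowest group was knockout with FGF and the highest was control, and neither overlapped with any other group, while knockout and control with FGF overlapped. The log2 fold change between knockout and control was -1.49 ± 0.10 with FGF (adjusted p = 1.22e-07) and -0.73 ± 0.09 without (SE; adjusted p = 3.95e-05).

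Col6a2 was at 0.561, 0.264 and 0.345 CPM in knockout with FGF, 5.52, 4.80 and 3.52 CPM in control with FGF, 2.22, 1.80 and 1.45 CPM in knockout, and 6.63, 7.60 and 6.97 CPM in control. Its 4 groups did not overlap. Knockout with FGF was lowest, followed upwards by knockout, control with FGF and control. The knockout libraries with FGF held only 12, 5 and 7 counts. On the log2 scale the change was -3.53 ± 0.29 with FGF (adjusted p = 7.70e-07) and -1.96 ± 0.22 without (adjusted p = 1.27e-05). The third chain, Col6a3, had 0 to 7 counts per library, with 12 in all in knockout with FGF, 6 in control with FGF, 8 in knockout and 2 in control. Col6a6 had none, Col6a4 had 2 in a single library, and Col6a5 had 0 to 10 counts per library.

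Per length, collagen VI chains held 0.673% to 0.727% of the summed collagen RPKM in knockout with FGF, 2.09% to 2.25% in control with FGF, 1.77% to 2.09% in knockout and 3.17% to 3.23% in control. The ratio of Col6a2 to Col6a1 per length was 0.0244 ± 0.00846 in knockout with FGF and 0.104 ± 0.0269 in control with FGF, and 0.0447 ± 0.0106 in knockout and 0.105 ± 0.0128 in control (SD, n = 3 each). In both comparisons the libraries did not overlap, and the two-sided exact permutation p was 0.1, the smallest that 3 against 3 allows. With the principal transcript lengths of Col6a2 (3949 bases, against 8326 for all its exons) and Col6a1 (4100 bases, against 4380), the ratio in control was 0.207. Length scales the ratio alike in every library, so the contrast between groups is the same.

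**Figure D2:**
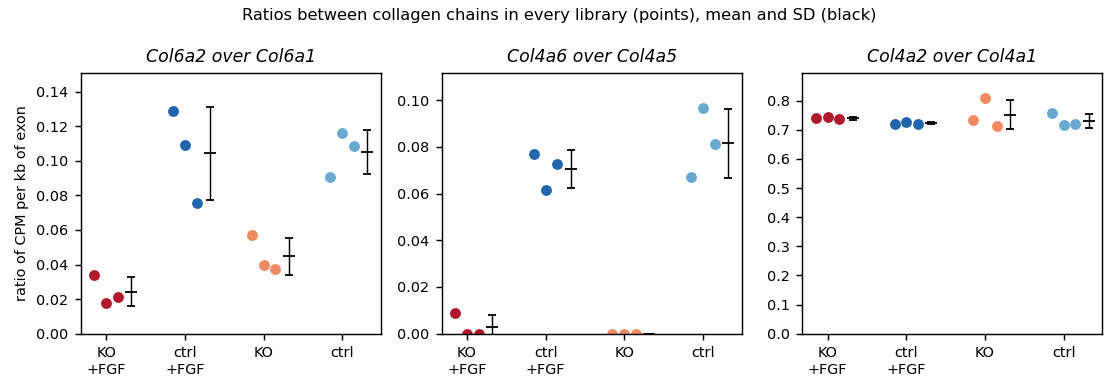
Ratios of CPM per kilobase of exon between the chains of collagen VI (left) and of collagen IV (middle and right), by library (points) with the mean and SD of 3 (black), for knockout with FGF, control with FGF, knockout and control (ctrl) from left to right. Col6a2 over Col6a1 is lower in knockout in both pairs, Col4a6 over Col4a5 is 0 or near it in knockout, and Col4a2 over Col4a1 lies between 0.713 and 0.808 in every library.

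The abundant collagen IV chains did not pass the test. Col4a1, with the group means 612 ± 22.3 CPM in knockout with FGF and 642 ± 30.1 CPM in control with FGF, and 579 ± 20.2 CPM in knockout and 644 ± 36.4 CPM in control, had log2 fold changes of -0.07 ± 0.07 with FGF (adjusted p = 0.442) and -0.15 ± 0.07 without (adjusted p = 0.0692), although its libraries without FGF did not overlap. Col4a2 averaged 401 ± 13.9 CPM in knockout with FGF and 411 ± 17.3 CPM in control with FGF, and 385 ± 15.5 CPM in knockout and 418 ± 35.5 CPM in control, with log2 fold changes of -0.03 ± 0.07 (adjusted p = 0.747) and -0.12 ± 0.07 (adjusted p = 0.203). Col4a1 without FGF also passed with upper-quartile scaling (adjusted p = 0.0365) and DESeq2 (0.0429), and Col4a2 with the length and GC correction (0.0476, and 0.0482 with the block). Without knockout replicate 2, both passed as lower in the comparison without FGF, at log2 fold changes of -0.13 (Col4a1, adjusted p = 0.0402) and -0.15 (Col4a2, adjusted p = 0.0367). The 2 genes start 21 bases apart on chromosome 8 and run in opposite directions, as the shared promoter stretch shows. Their gene models overlap there, and the strand setting of the counting is not given in the sources used here. The ratio of Col4a2 to Col4a1 per length was 0.739 ± 0.00390 in knockout with FGF and 0.722 ± 0.00362 in control with FGF, and 0.752 ± 0.0497 in knockout and 0.730 ± 0.0230 in control. The exact permutation p was 0.1 with FGF, the smallest possible, and 0.7 without.

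Col4a5 and Col4a6, the chains of a collagen IV known from skin and smooth muscle basement membranes, lie in opposite directions with starts 1309 bases apart on chromosome X, and both were lower in knockout. Col4a5 was at 4.40, 4.23 and 3.85 CPM in knockout with FGF, 21.0, 20.1 and 22.1 CPM in control with FGF, 4.59, 4.38 and 6.87 CPM in knockout, and 30.8, 26.8 and 24.3 CPM in control. Every knockout library was below every control library. It differed on the log2 scale by -2.34 ± 0.16 with FGF (adjusted p = 1.44e-07) and -2.36 ± 0.15 without (adjusted p = 1.03e-07), which is 5.06-fold and 5.13-fold lower.

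Col4a6 had 1, 0 and 0 counts in knockout with FGF, 46, 29 and 40 in control with FGF, 0 in each of the 3 knockout libraries, and 52, 65 and 47 in control. It therefore passed the expression rule through its 6 control libraries alone, and since a difference between genotypes is built into its passing, its counts are a description with no test. Against a floor of 3 counts over the group, it was at least 50.6-fold lower in knockout than in control. With FGF the fold of control over knockout was 108, with a 95% counting interval of 18.9 to 4289. Col4a3 and Col4a4, the other collagen IV chains, had no counts in any library. Of the 50 tested genes next to Col4a6 on the chromosome, the median log2 fold change without FGF was -0.08, and 15 passed. In that comparison 45.8% of all genes passed, and the median of all genes was -0.01.

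Col7a1, the anchoring fibril collagen, was also lower in knockout. It was at 87.7, 91.9 and 93.8 CPM in knockout with FGF, 141, 121 and 131 CPM in control with FGF, 52.3, 47.7 and 50.8 CPM in knockout, and 112, 110 and 101 CPM in control. None of the 4 groups overlapped. Between knockout and control the log2 fold change was -0.52 ± 0.08 with FGF (adjusted p = 0.000132) and -1.10 ± 0.08 without (adjusted p = 2.23e-07).

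Among the higher collagens, Col27a1, a fibril-forming collagen known from cartilage, had the largest fold. It was at 3.97, 4.86 and 3.50 CPM in knockout with FGF, 0.460, 1.01 and 0.572 CPM in control with FGF, 3.58, 2.94 and 3.27 CPM in knockout, and 0.752, 0.614 and 0.498 CPM in control. All 6 knockout libraries were above all 6 control libraries, and of the 7 libraries at 1 CPM or more, 6 were knockout. The control libraries alone would not have met the expression rule, so a difference between genotypes is partly built into its passing. Its log2 fold change, given as a description, was 2.61 ± 0.27 with FGF and 2.38 ± 0.28 without.

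Col5a1, whose chain joins collagen I fibrils and helps start them, was at 39.2, 42.1 and 40.5 CPM in knockout with FGF, 19.1, 19.8 and 18.6 CPM in control with FGF, 40.3, 42.8 and 42.2 CPM in knockout, and 25.3, 24.1 and 20.1 CPM in control. Knockout libraries were all above control libraries. Its log2 fold change was 1.08 ± 0.09 with FGF (adjusted p = 1.01e-06) and 0.85 ± 0.09 without (adjusted p = 8.37e-06). Its partner chain Col5a2 had no counts in any library, and Col5a3 had at most 2.

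Col17a1, the transmembrane collagen of hemidesmosomes, was at 8.14, 6.93 and 7.35 CPM in knockout with FGF, 3.30, 3.43 and 4.05 CPM in control with FGF, 5.25, 4.86 and 4.39 CPM in knockout, and 2.30, 2.93 and 3.39 CPM in control. Knockout with FGF was above every other group, and each knockout group was above its control. Here the log2 fold change was 1.06 ± 0.16 with FGF (adjusted p = 0.000143) and 0.75 ± 0.17 without (adjusted p = 0.00263).

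Col18a1, a basement membrane collagen that carries heparan sulfate and is the source of endostatin, was at 482, 452 and 481 CPM in knockout with FGF, 358, 367 and 367 CPM in control with FGF, 465, 569 and 493 CPM in knockout, and 390, 364 and 346 CPM in control. All knockout libraries were above all control libraries. The log2 fold change was 0.37 ± 0.08 with FGF (adjusted p = 0.00202) and 0.47 ± 0.08 without (adjusted p = 0.000348). Its gene lies on chromosome 10 with its start 440380 bases from that of Col6a1, which moved the other way, and Col6a1 and Col6a2 start 102538 bases apart. The gene model overlaps Slc19a1 on the other strand, which had 450 to 733 counts per library.

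**Figure D3:**
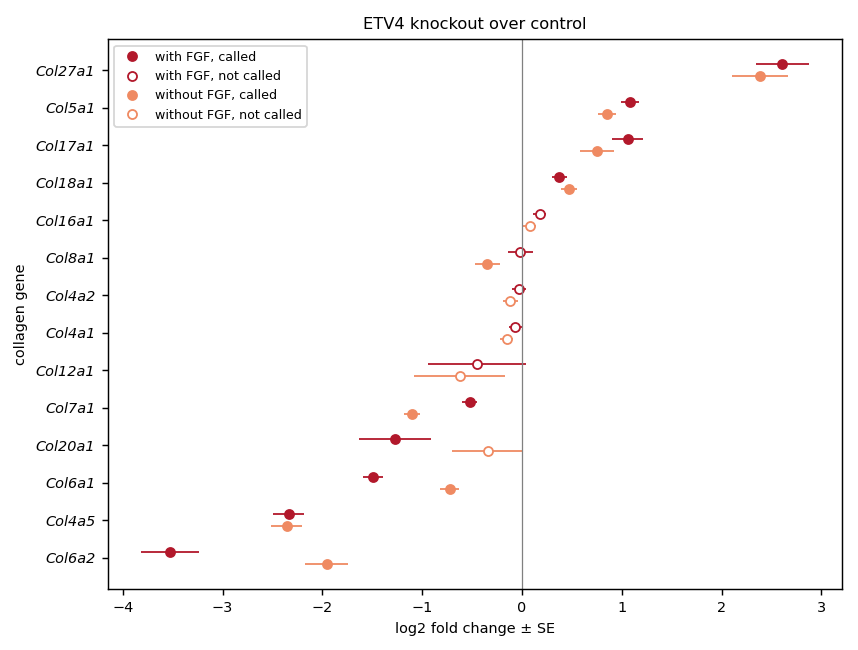
Log2 fold change of knockout over control, with its SE, for 14 expressed collagens with FGF (red, upper point of each pair) and without FGF (orange, lower point); filled points passed the test. Col4a6 is left out because its knockout libraries hold 1 count in all. Col6a2 with FGF (-3.53) and Col27a1 with FGF (2.61) lie at the ends.

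The remaining expressed collagens were Col8a1, Col16a1, Col20a1 and Col12a1. Col8a1, a short-chain network collagen known from vessels and the cornea, was at 305, 300.0 and 316 CPM in knockout with FGF, 323, 284 and 326 CPM in control with FGF, 282, 189 and 290 CPM in knockout, and 334, 318 and 317 CPM in control. The low value is knockout replicate 2. Col8a1 passed as lower without FGF (log2 -0.35 ± 0.13, adjusted p = 0.0384), and was at -0.17 (adjusted p = 0.0126) without that replicate. Leaving out any 1 of the 3 control, 3 control with FGF or 3 knockout with FGF libraries ended the call, with adjusted p from 0.0503 to 0.105, and so did a fit of the 6 compared libraries alone (-0.36, adjusted p = 0.145). With FGF it did not pass (-0.02 ± 0.13, adjusted p = 0.920). Of the 50 tested genes around Col8a1 on chromosome 16, 38 passed without FGF, with a median log2 fold change of -0.55, and 37 passed with FGF, where the median was -0.45. Of all genes, 45.8% passed without FGF and 40.3% with FGF, with a median of -0.01 in both. The part of these neighbours in the result was not tested.

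Col16a1, a fibril-associated collagen, averaged 63.7 ± 1.68 CPM in knockout with FGF and 56.4 ± 1.15 CPM in control with FGF, and 69.1 ± 2.41 CPM in knockout and 65.6 ± 3.58 CPM in control. With FGF the libraries did not overlap and the adjusted p was 0.0518 (log2 0.18 ± 0.07), and without knockout replicate 2 it was 0.00840. It also passed with RLE scaling, DESeq2, limma-voom, the length and GC correction and the compared libraries alone, with adjusted p from 0.0183 to 0.04995. Without FGF it did not pass (adjusted p = 0.374). Col20a1, another fibril-associated collagen, was near the expression limit with 6, 11 and 17 counts in knockout with FGF, 36, 27 and 26 in control with FGF, 11, 16 and 21 in knockout, and 18, 27 and 21 in control. All of its 5 libraries at 1 CPM or more were control libraries. A difference between genotypes is thus partly built into its meeting the expression rule, and its results are a description. Col20a1 passed as lower with FGF (log2 -1.28 ± 0.36, adjusted p = 0.0122), but not when knockout replicate 1 with FGF was left out (-0.94, adjusted p = 0.0567). Nor did it pass in the comparison without FGF (-0.35 ± 0.35, adjusted p = 0.449). Col12a1, also fibril-associated, had 0.561, 0.899 and 0.247 CPM in knockout with FGF, 0.795, 0.859 and 0.667 CPM in control with FGF, 1.06, 0.420 and 0.607 CPM in knockout, and 1.504, 0.567 and 1.20 CPM in control. It thus reached 1 CPM in 3 libraries, from 5 to 32 counts per library. Its groups overlapped, and it passed in neither knockout comparison (adjusted p = 0.497 with FGF and 0.284 without).

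For FGF, each genotype was compared with its own cultures without FGF. These comparisons share their libraries with those of the knockout, so their values are given side by side and not as further support. In knockout cells 4 of the 15 collagens passed, Col7a1 and Col17a1 higher and Col6a1 and Col6a2 lower with FGF, where 2.42% of all genes tested passed, 1.47% higher and 0.944% lower. In control cells 1 of the 15 passed, Col6a1, which was lower with FGF, where 0.488% of all genes passed, 0.257% higher and 0.232% lower. In control cells 7 of the 15 had an unadjusted edgeR p under 0.05 in either direction, against 5.96% of all genes. Of these only Col7a1 was higher with FGF, and the rest were lower. DESeq2 called 1 collagen higher, with 143 genes called in all, and limma-voom called 0 higher, with 67 in all. The median log2 fold change of the 15 was -0.04 in knockout cells and -0.05 in control cells, against -0.02 and -0.000526 for all genes. The number of all genes called was 292 in knockout cells and 59 in control cells. Without knockout replicate 2 these became 950 and 343, and with other single libraries left out the lowest were 120 (without knockout replicate 2 with FGF) and 25 (without control replicate 1).

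Col6a1 fell with FGF in both genotypes, by 1.37 on the log2 scale in knockout cells (SE 0.10, adjusted p = 9.21e-06) and by 0.60 in control cells (SE 0.09, adjusted p = 0.00752). In control cells the adjusted p was 0.0748 without control replicate 1 and 0.0631 without control replicate 1 with FGF. Col6a2 fell by 2.18 in knockout cells (SE 0.33, adjusted p = 0.00323), and in control cells its log2 fold change was -0.61 ± 0.19 (adjusted p = 0.392). A fit of the 6 knockout libraries alone gave Col6a2 an adjusted p of 0.0777. In the library values above, each FGF group of both genes lies entirely below its group without FGF.

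Col7a1 was higher with FGF in knockout cells by 0.86 ± 0.08 on the log2 scale (adjusted p = 7.40e-05), and in control cells the log2 fold change was 0.28 ± 0.08 (adjusted p = 0.235, and 0.00555 without knockout replicate 2). In control cells it also passed with DESeq2, the length and GC correction (alone and with the block) and the compared libraries alone, with adjusted p from 0.0153 to 0.0396. Its libraries with FGF were all above those without FGF in both genotypes. Col17a1 was higher in knockout cells by 0.63 ± 0.15 (adjusted p = 0.0491). That call ended when any 1 of 10 libraries was left out, which were control replicates 2 and 3, knockout replicates 1 and 3, and every library of both FGF groups, with an adjusted p of up to 0.184. It also ended with the replicate block (adjusted p = 0.0743), upper-quartile scaling (adjusted p = 0.0560) and the compared libraries alone (adjusted p = 0.167). In control cells it was 0.32 ± 0.17 (adjusted p = 0.908). The other collagens did not pass in either genotype in these fits, and the abundant Col4a1, Col4a2, Col18a1 and Col8a1 had log2 fold changes from -0.11 to 0.27 in knockout cells and from -0.05 to -0.01 in control cells. Without knockout replicate 2, Col16a1 passed as lower in control cells (-0.22, adjusted p = 0.0290).

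**Figure D4:**
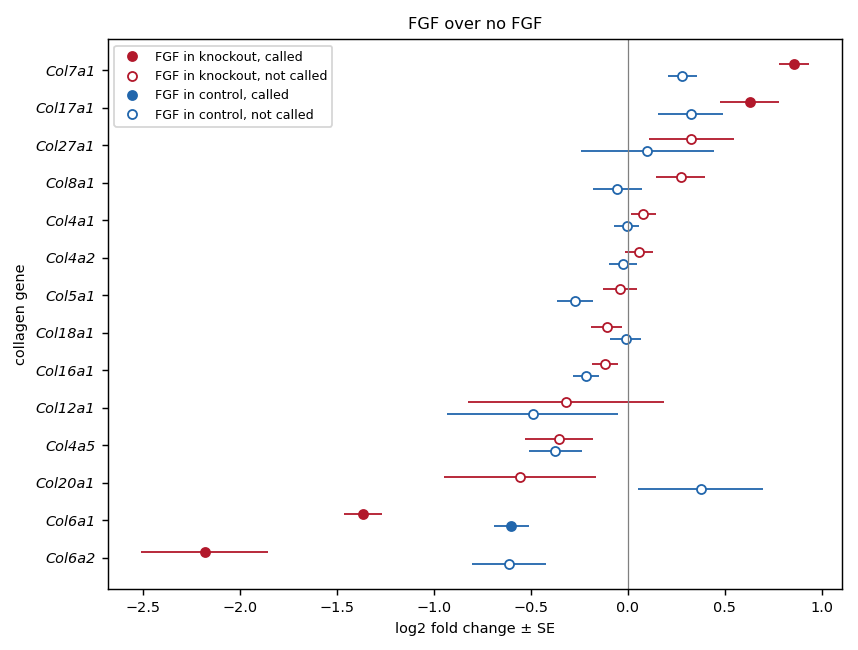
Log2 fold change of FGF over no FGF, with its SE, for 14 expressed collagens in knockout cells (red, upper point of each pair) and control cells (blue, lower point); filled points passed the test, and Col4a6 is left out because its knockout libraries hold 1 count in all. Col6a1 and Col6a2 are lowest in knockout cells, at -1.37 and -2.18.

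Whether FGF acted differently in the 2 genotypes was tested as an interaction, the FGF effect in knockout minus that in control. By edgeR 0 of the 15 collagens passed, where 0.0166% of all genes passed. An unadjusted edgeR p under 0.05 was found for 3 of the 15, against 10.2% of all genes. DESeq2 called 3 of the 15, with 66 genes called in all, and limma-voom 0, with 4 in all. For Col6a1 the interaction was -0.76 ± 0.13 (adjusted p = 0.0792), for Col7a1 0.58 ± 0.11 (adjusted p = 0.114) and for Col6a2 -1.57 ± 0.39 (adjusted p = 0.280), all on the log2 scale. Without knockout replicate 2, Col6a1 (-0.69, adjusted p = 0.00529) and Col7a1 (0.54, adjusted p = 0.00294) passed and Col6a2 did not (adjusted p = 0.0750). After a correction of each library for exon length and GC content the adjusted p was 0.0242 for Col6a1 and 0.0377 for Col7a1. With that correction and the replicate block it was 0.0389 for Col6a1 and 0.0658 for Col7a1. By DESeq2 on all libraries the adjusted p was 0.000409 for Col6a1, 0.000417 for Col7a1 and 0.0440 for Col6a2. Whether these interactions passed thus depended on the test, on knockout replicate 2, on the length and GC correction and, for Col7a1, on the block. The only genes of the table that passed were Mmp9, a gelatinase, and Mmp13, a collagenase, the second chosen for naming after its values were seen, with interactions of 0.95 ± 0.11 (adjusted p = 0.0123) and 1.08 ± 0.14 (adjusted p = 0.0243).

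The 29 collagens below the expression rule included the fibroblast collagens. Col1a1 had 0 to 7 counts per library, Col1a2 0 to 7 and Col3a1 0 to 2, although the cells sat in a collagen I gel, which brings protein and no RNA. Of the 29, 11 had no count in any library: Col4a3, Col4a4, Col5a2, Col6a6, Col9a1, Col9a2, Col10a1, Col19a1, Col22a1, Col25a1 and Col26a1. The other 18 were Col1a1, Col1a2, Col2a1, Col3a1, Col5a3, Col6a3, Col6a4, Col6a5, Col8a2, Col9a3, Col11a1, Col11a2, Col13a1, Col14a1, Col15a1, Col23a1, Col24a1 and Col28a1, none above 19 counts in a library. Col11a2 lay just below the rule with up to 0.946 CPM and Col12a1 just inside it. Col2a1, the collagen of cartilage, had 3 counts in all in knockout with FGF and 23 in control with FGF, a ratio of control over knockout of 7.18 with a 95% counting interval of 2.17 to 37.3. It had 0 in knockout and 20 in control, at least 6.17-fold lower in knockout against a floor of 3 counts over the group, and it was too low to enter the tests across genes.

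The enzymes and partners of collagen were followed in 6 lists. Of 20 tested genes for chain synthesis and folding, 9 were higher and 2 lower in knockout with FGF (median log2 0.27), where 18% of all genes were higher and 22.2% lower. Without FGF 12 were higher and 3 lower (median 0.35), where 22.5% of all genes were higher and 23.3% lower. The median of all genes was -0.01 in both. Without knockout replicate 2 the counts were 13 and 3 with FGF and 12 and 4 without, where 7172 and 6667 genes were called in all. The prolyl hydroxylase subunit P4ha2 averaged 12.2 ± 1.00 CPM in knockout with FGF and 5.39 ± 0.416 CPM in control with FGF, and 9.45 ± 0.631 CPM in knockout and 4.53 ± 0.523 CPM in control, with log2 fold changes of 1.18 with FGF and 1.06 without. Sec24d, part of the coat that exports procollagen, was higher in knockout by 0.60 with FGF and 0.46 without on the log2 scale. Fkbp14, a prolyl isomerase, was lower, at -2.69 and -1.81, and so was Plod2, the lysyl hydroxylase of fibril collagen ends, at -0.43 and -0.84. The model of Fkbp14 overlaps Plekha8 on the other strand.

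Of 8 tested genes for procollagen processing and cross-linking, 3 were higher and 3 lower in knockout in both comparisons, where 40.3% of all genes passed with FGF and 45.8% without. The lysyl oxidase relative Loxl3 averaged 7.38 ± 0.700 CPM in knockout with FGF and 28.5 ± 0.247 CPM in control with FGF, and 9.53 ± 1.25 CPM in knockout and 39.2 ± 2.35 CPM in control, with log2 fold changes of -1.95 and -2.04. Its model overlaps Htra2 on the other strand. Its relative Loxl4 rose by 0.74 with FGF and 0.58 without. Adamts14, a procollagen N-proteinase, was lower, at -0.32 and -0.51, and so was Pcolce, which helps cleave the procollagen C-end, at -1.05 and -0.71. The model of Pcolce overlaps Fbxo24 on the same strand and Gm36266 on the other.

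Of 10 tested collagen receptors, 5 were higher and 3 lower in knockout with FGF (median 0.18) and 3 higher and 4 lower without (median -0.24), against 40.3% and 45.8% of all genes called in either direction. Adgrg1, the adhesion receptor known in mouse brain to bind collagen III, averaged 1.02 ± 0.189 CPM in knockout with FGF and 10.2 ± 0.374 CPM in control with FGF, and 1.39 ± 0.322 CPM in knockout and 12.1 ± 1.27 CPM in control, with log2 fold changes of -3.31 and -3.10. Itga1, an integrin chain that binds collagen IV, was at -0.99 and -1.10, and its model overlaps Pelo on the same strand. Antxr2, known in mouse to take up collagen VI, rose by 0.98 and 0.63, and the receptor kinase Ddr1 rose by 0.60 and 0.38. FGF in knockout cells raised 4 of the 10, Itga2, Itgb1, Antxr2 and Cd44, named after their values were seen, where 1.47% of all genes were higher.

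Of 10 tested basement membrane partners, 3 were higher and 1 lower in knockout with FGF (median 0.02), and 3 were higher and 3 lower without (median -0.05). Of the 10, 6 were not called with FGF and 4 without, where 40.3% and 45.8% of all genes were called. In this list of 10, the share called with FGF is thus near that of all genes, and the share without FGF lies above it. The lower genes were 2 with FGF and 5 without when knockout replicate 2 was left out, where 7172 and 6667 genes were called in all. Lama3, a laminin chain of epithelial basement membranes, averaged 1222 ± 29.7 CPM in knockout with FGF and 496 ± 28.2 CPM in control with FGF, and 754 ± 49.6 CPM in knockout and 381 ± 17.0 CPM in control, with log2 fold changes of 1.30 and 0.99. Lamb3, another laminin chain, had log2 fold changes of 1.18 and 1.08. Lamb3 overlaps Hsd11b1 and Lama3 overlaps Gm29200, both on the other strand. The proteoglycan Agrn fell by 0.48 without FGF, and with FGF it was at -0.19 (adjusted p = 0.0565), which became 0.00278 without knockout replicate 2.

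Of 7 tested fibril-associated matrix partners, 2 were higher and 4 lower in knockout with FGF, and 3 were higher and 3 lower without, where 40.3% and 45.8% of all genes were called. Fbln1, with counts in control libraries alone, and Tnxb, below 1 CPM on average in both control groups, could pass the filter on low counts only through the genotype where they are high, so their calls were built into their passing. Fibronectin, Fn1, which guides fibril assembly, averaged 500 ± 15.8 CPM in knockout with FGF and 1297 ± 80.8 CPM in control with FGF, and 438 ± 77.0 CPM in knockout and 1315 ± 57.1 CPM in control, with log2 fold changes of -1.37 and -1.59. Tnxb, a tenascin that links collagen fibrils, was at 12.05 ± 0.499 CPM in knockout with FGF and 0.308 ± 0.250 CPM in control with FGF, and 14.4 ± 1.89 CPM in knockout and 0.388 ± 0.253 CPM in control (log2 5.20 in both). Fbln2 rose by 1.00 and 0.85, and Fbln1, another fibulin, had no counts in the knockout libraries and averaged 1.57 CPM in control with FGF and 1.63 CPM in control.

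Of 9 tested genes for collagen cleavage, 8 were higher in knockout with FGF (median 0.54) and the other, Ctsl, was at 0.02 (adjusted p = 0.838), where 18% of all genes were higher. Without FGF 6 were higher and 2 lower, Mmp9 and Mmp13 (median 0.52), where 22.5% of all genes were higher and 23.3% lower. Mmp3 averaged 658 ± 9.12 CPM in knockout with FGF and 282 ± 8.27 CPM in control with FGF, and 475 ± 24.4 CPM in knockout and 202 ± 1.63 CPM in control, with log2 fold changes of 1.22 and 1.24. Mmp1b had log2 fold changes of 2.93 and 2.58, though Mmp1a and Mmp1b are close copies whose reads may be shared, and the membrane-bound collagenase Mmp14 of 0.74 and 0.56. Mmp9 was higher in knockout with FGF (0.34) and lower without (-0.61), from 230 ± 12.9 CPM in knockout with FGF, 181 ± 5.40 CPM in control with FGF, 80.5 ± 7.69 CPM in knockout and 123 ± 4.16 CPM in control. With FGF, 6 of the 9 were higher in knockout cells and 4 of the 9 in control cells than without FGF, where 1.47% and 0.257% of all genes were higher. These were 8 and 4 of the 9 without knockout replicate 2. In that fit the genes called in either direction rose from 292 to 950 in knockout cells and from 59 to 343 in control cells. The gels were digested with collagenase before the RNA was taken, which was the same step for all libraries.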

How the data were processed

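RNA was sequenced from 12 libraries of 4T1 cells, 3 in each of 4 groups. The deposited table holds raw counts per gene symbol, not normalized by the authors. The submitters' processing notes name R 4.1.1, featureCounts, STAR 2.7.9a and FastQC 0.11.9, and list mm10 beside hg38. The gene symbols are those of mouse. Neither the strand setting nor the annotation release of the counting is given in the sources used here. Genes were tested on the counts in R 4.3.3 by edgeR (version 4.0.16, F-test of the quasi-likelihood fit), after filterByExpr by group, TMM scaling and a mean per group over all 12 libraries with 8 residual degrees of freedom. All tests were two-sided, and p-values were Benjamini-Hochberg adjusted over 12079 genes. The test was tried on simulated data. The SE is the log2 fold change divided by the square root of F. Exon lengths and coordinates come from GENCODE vM21 on mm10, matched by symbol (30416 of 31017 directly, 48 to several models, 553 to none), and promoter windows come from RefSeq on GRCm38.p6. Floors and intervals cover counting error only.

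Members and lists were chosen with earlier results of these data known. All expressed collagens are named. Of each list of partners or cell type markers up to 4 genes with the smallest adjusted p in knockout against control without FGF are named. A gene of the basement membrane list is not reported here. Alternatives were upper-quartile or RLE scaling, limma-voom 3.58.1, DESeq2 1.42.0, other filters, a replicate block, a length and GC correction, the compared libraries alone and leaving out each library. No replicates were duplicates (chi-square per degree of freedom 3.26 or higher).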

Additional observations from a re-analysis of the deposited data

How the results depend on the processing

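The knockout calls of Col4a5, Col6a1, Col6a2, Col7a1, Col5a1, Col27a1, Col17a1 and Col18a1 held in both comparisons under each alternative run and with any 1 library left out. For Col27a1 this is a description, because it met the expression rule only with the knockout libraries. Among all calls, 22 of 300 checks with a library left out and 5 of 250 checks with another setting lost the call, and none turned its direction. These totals include the knockout calls of Col4a6, Col27a1 and Col20a1, which met the expression rule through libraries mostly or all of 1 genotype. They are therefore a description. Calls of Col8a1, Col20a1, Col17a1, Col6a1 and Col6a2 that were lost are given with their results.

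The number of expressed collagens was 15, and 14 to 15 with a library left out. With a library left out, genes called ran from 4491 to 6667 for knockout without FGF, with 4 collagens higher and 5 to 8 lower, and from 3963 to 7172 with FGF, with 4 to 5 higher and 5 to 6 lower. For FGF in control they ran from 25 to 343, with 0 to 1 collagens higher and 0 to 2 lower. For FGF in knockout they ran from 120 to 950, with 1 to 2 higher and 2 lower. For the interaction they ran from 0 to 120, with 0 to 1 higher and 0 to 1 lower.

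FGF in control called 143 genes with DESeq2, 114 with the length and GC correction, 108 with that correction and the replicate block, and 228 with the compared libraries alone, each with 1 collagen higher, Col7a1. FGF in knockout called 730, 804, 797 and 23 genes under the same 4 settings. There 1 collagen was higher with upper-quartile scaling, with the replicate block and with the compared libraries alone, and 1 was lower with the compared libraries alone. The interaction called 66 genes with DESeq2 (1 collagen higher, 2 lower), 4 with limma-voom, 8 without a filter, 19 with the correction (1 higher, 1 lower) and 12 with the correction and the block (1 lower). It could not be fitted on 2 groups alone. The cause of these shifts was not tested.

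Same-numbered libraries correlated by -0.0874 to 0.343 in their deviations from group means, and 2 of 18 pairs were over 0.1. These were knockout without FGF against control with FGF, replicates 1 (0.210) and 2 (0.343). Differently numbered libraries of these groups also went over 0.1, up to 0.177 (knockout replicate 3 and control replicate 1 with FGF). The lowest was -0.301 (knockout replicate 1 and control replicate 2 with FGF). Such correlations cannot show whether same-numbered libraries were handled together, so pairing remains unknown. The replicate block called 5705 genes for knockout without FGF, against 5533 without it.

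Directions that turned were all of uncalled genes. With the length and GC correction, alone and with the block, they were Col8a1 for knockout with FGF (0.0260 and 0.0269), and for FGF in control Col4a1 (0.0308 and 0.0300), Col4a2 (0.00987 and 0.0104) and Col18a1 (0.0260 and 0.0257), and for the interaction Col4a5 (-0.0294 and -0.0252). The interaction of Col4a5 was -0.00446 with upper-quartile scaling and that of Col12a1 -0.0078 with limma-voom. With a library left out, Col8a1 for knockout with FGF ran from -0.0744 to 0.0149. For FGF in control, Col4a1 ran from -0.0469 to 0.0347, Col4a2 from -0.0755 to 0.0449, Col8a1 from -0.0892 to 0.00771, Col18a1 from -0.0516 to 0.0365 and Col27a1 from -0.28 to 0.33. Col12a1 for FGF in knockout ran from -0.78 to 0.11. The interaction of Col4a5 ran from -0.0950 to 0.26, of Col12a1 from -0.29 to 0.60 and of Col27a1 from -0.00456 to 0.63. With the principal transcript length, chosen after seeing the data, the control ratio of Col4a2 to Col4a1 was 0.664 and that of Col6a2 to Col6a1 was 0.207.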
